A study of Drosophila pseudoobscura with 29 samples.

Results

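The promoters described here are divergent promoter pairs, in which neighbouring genes are transcribed away from each other, 1 on the minus strand and 1 on the plus strand, from start sites that lie side by side. Pairs were chosen by position and level. Each promoter is represented by a transcription start site cluster (TSC), a run of closely spaced start sites. Both TSCs had to be assigned to genes, and to different genes, with the plus-strand TSC beginning 0 to 500 bp after the end of the minus-strand TSC. Both also had to reach a maximum of at least 10 RPM (reads per 1000000 reads) in some window. The rule kept 870 of the 1643 divergent pairs at that distance. They comprise 1681 of the 18173 gene-assigned TSCs in the series, from 1634 of 10231 genes, in 830 gene pairs. Of the 10933 gene-assigned TSCs that reach 10 RPM, 15.4% belong to such a pair.

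In a divergent arrangement, also called head-to-head, the short stretch of DNA between the start sites is the upstream region of both genes. Each start site has its own core promoter, on which RNA polymerase II assembles, while the nucleosome-free region and the transcription factors bound there can be common to both. Such pairs are frequent in compact animal genomes, and how far the partners are controlled together differs between pairs.

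Whole embryos of the reference genome strain of Drosophila pseudoobscura, labelled wild type, were collected in windows of 1 h from 0 to 29 h after egg laying, and promoter activity was measured by RAMPAGE, which sequences cDNA molecules complete at the 5′ end. There are 29 libraries, 1 per window, so no window has a replicate, and a course is judged by the scatter of the libraries around it. In whole embryos, fewer cells using a promoter and less RNA per cell cannot be told apart. Identifiers are printed as the tables give them, since the files do not pair them with gene names, so no gene function is given and no marker of embryonic stage was checked.

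Depth differs widely among the libraries. The library of 27-28 h holds 1011 reads in TSCs and was left out of every value unless stated. The other 28 libraries hold between 723775 and 11862896 reads, with a median of 3283583, and the deepest is that of 0-1 h. A single read is worth between 0.0843 and 1.38 RPM in them. No read allows up to 3 reads, or 0.253 RPM at 0-1 h, an allowance for counting error only. Divergent pairs took between 14.2% and 19.9% of the reads in each of these libraries, and each library had reads from at least 1563 of the 1681 TSCs.

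Members just inside the limits differ little from pairs just outside. The widest gaps kept are 498, 500 and 500 bp, and the next divergent pairs lie 501, 501 and 504 bp apart. The weaker TSC of the 3 faintest pairs kept peaks at 10.0 RPM to 3 significant digits, and that of the strongest pairs left out at 9.94, 9.90 and 9.78 RPM. Of the 773 pairs left out for level, 672 have 1 TSC of at least 10 RPM. A further 228 pairs of TSCs of that level overlap on opposite strands, belong to different genes and are not members, since the rule needs a gap of 0 bp or more.

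Some members are not separate measurements. There are 59 TSCs that stand in 2 pairs each, and 38 gene pairs supply more than 1 TSC pair. In addition, 21 intervals are listed under 2 gene identifiers with identical values, so the 870 pairs represent 848 pairs of distinct intervals. Because TSCs were called once, on pooled reads, deep windows weigh more in which TSCs exist.

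The distance between partners falls into separate ranges. The median gap is 229 bp, with quartiles of 48 and 336 bp. In 286 pairs (32.9%) it is under 100 bp, and in 136 of them under 25 bp. Only 37 pairs (4.25%) have a gap of 100 to 174 bp, whereas 275 (31.6%) have one of 175 to 299 bp. The lowest number in any bin of 25 bp is 4, between 125 and 149 bp, and the second peak, of 69 pairs, lies between 225 and 249 bp. Beyond 300 bp there are 272 pairs and no further clear peak. At these levels, divergent neighbours outnumber the other orientations at the same distance, with 870 pairs against 38 on the same strand and 25 convergent. The smallest gap on the same strand is 139 bp and the smallest convergent one 58 bp. Closely spaced start sites of 1 strand form 1 TSC, and the 695 pairs of TSCs of 1 gene at this distance are not counted. These numbers therefore do not measure the arrangement of genes alone.

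**Figure D1:**
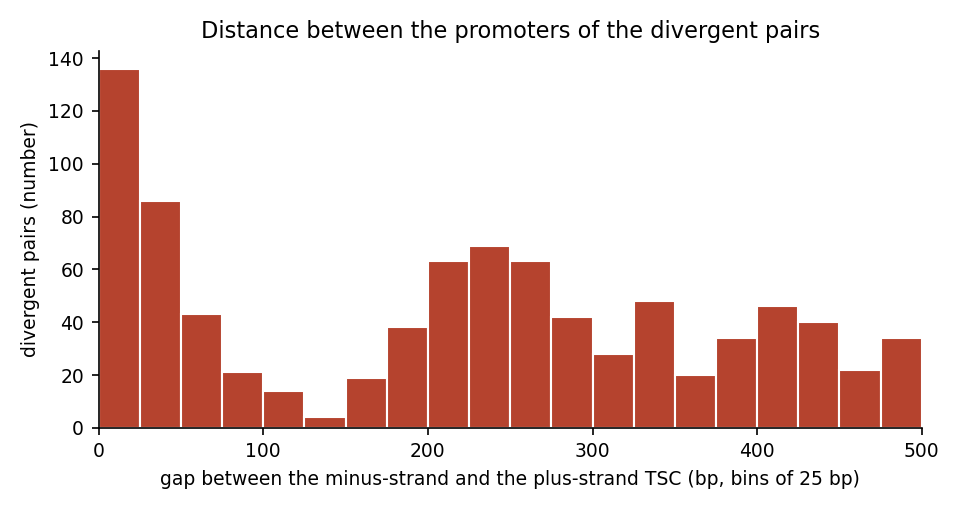
Number of divergent pairs (vertical axis) by the gap in bp between the end of the minus-strand TSC and the start of the plus-strand TSC (horizontal axis, bins of 25 bp, the last reaching 500 bp). The 136 pairs of the first bin and the 69 pairs at 225 to 249 bp are separated by a bin of 4 pairs.

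At the smallest distances, the TSC intervals of both strands touch. There are 11 pairs with a gap of 0 bp. In the r2.9 build of the genome, FBgn0074682_01 occupies bases 16237833 to 16237917 of chromosome 3 on the minus strand and FBgn0071236_02 bases 16237918 to 16237998 on the plus strand. The minus-strand TSC of this pair ranged from 16.6 RPM at 25-26 h through a median of 52.7 to 95.0 RPM at 5-6 h. Its partner ranged from 5.74 RPM at 23-24 h through a median of 26.5 to 82.7 RPM at 4-5 h. The partners peak in neighbouring windows. At 28-29 h the minus-strand TSC stood at 51.8 RPM, close to its median, and the plus-strand TSC at 10.1 RPM, below its own. The Pearson correlation of log2(RPM + 1) over the 28 libraries is 0.699.

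The pair of FBgn0077117_02 and FBgn0071492_01 on chromosome XL is also contiguous and has nearly equal levels on the strands. Its minus-strand TSC lay between 3.47 and 23.6 RPM, with a median of 11.9, and its plus-strand TSC between 3.47 and 24.0 RPM, with a median of 11.3. Contiguity did not always go with equal levels. FBgn0073374_01, a broad TSC of 382 bp, had a median of 537 RPM and a maximum of 1455 RPM at 3-4 h, while the adjoining FBgn0071059_01 had a median of 5.52 RPM and never exceeded 12.1 RPM. Nor did it always go with similar courses. FBgn0077623_01 and FBgn0077968_01, on chromosome 4, had a correlation of 0.070. The minus-strand TSC was highest at 2-3 h, with 145 RPM, and the plus-strand TSC at 13-14 h, with 47.6 RPM.

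The maxima of partners, which the rule used, are given as a description. The stronger TSC of a pair reached a median of 3.29 times the maximum of the weaker one. In 259 pairs (29.8%) the maxima are within 2-fold of each other and in 180 (20.7%) they are over 10-fold apart. Spearman's correlation of the 2 maxima is 0.013 over the 870 pairs, in which some pairs share TSCs and all share the libraries. Over the 1643 divergent pairs before the level filter, it is -0.035. The plus-strand TSC is the stronger in 455 pairs and the minus-strand TSC in 415. The lead is often fixed through the embryo, with the same TSC ahead in all 28 libraries in 393 pairs (45.2%). In 184 pairs (21.1%) each of the partners leads in at least 7 libraries.

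The pairs with the highest summed RPM show this inequality. FBgn0077956_01 lies at bases 1214482 to 1214782 of scaffold chr4_group3 on the minus strand and ranged from 1975 RPM at 7-8 h through a median of 5227 to 7477 RPM at 21-22 h. FBgn0072507_01 begins 28 bp further on the plus strand and ranged from 1.81 RPM at 23-24 h through a median of 10.7 to 46.3 RPM at 4-5 h. The ranges do not overlap. In the next pair, FBgn0073926_02 on the plus strand of chromosome 2 had a median of 4197 RPM and reached 7716 RPM at 28-29 h, and FBgn0076120_01, 245 bp away, had a median of 88.3 and a maximum of 259 RPM. In the third, FBgn0072294_01 on chromosome 4 had a median of 3492 RPM, against 194 RPM for FBgn0247256_01, 41 bp from it. The fourth pair holds the strongest single TSC of these 8. FBgn0245250_01 on chromosome XR reached 17410 RPM at 22-23 h, while FBgn0079977_01, 168 bp away, reached 36.1 RPM in the same window.

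RNA from most TSCs of divergent pairs was present in the first window and had reads in every library used. At 0-1 h, when most RNA of a fly embryo is maternal, 1431 members (85.1%) stood at 10 RPM or more, against 52.3% of the 9252 other gene-assigned TSCs that reach 10 RPM in some window. In 650 pairs (74.7%) both partners did. The median level of the members was 39.6 RPM at 0-1 h, 25.2 RPM at 10-11 h, 13.6 RPM at 23-24 h and 21.4 RPM at 28-29 h, whereas that of the other TSCs was 11.6, 12.5, 12.7 and 13.5 RPM. The quartile ranges overlap in every window. The lower quartile at 0-1 h was 15.6 RPM for the members and 0.337 RPM for the others. The highest window lay between 0 and 10 h for 1227 members (73.0%), against 49.0% of the other TSCs, and between 20 and 29 h for 168 members (10.0%), against 26.7% of the others. Depth also differs with time, so the peaks were located again on reads thinned to 723775 per library. The shares peaking before 10 h were then 73.7% of the members and 49.8% of the others. With no read in at least 1 of the 28 libraries were 310 members (18.4%) and 43.0% of the others. These shares depend on depth and were not taken again on thinned reads.

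**Figure D2:**
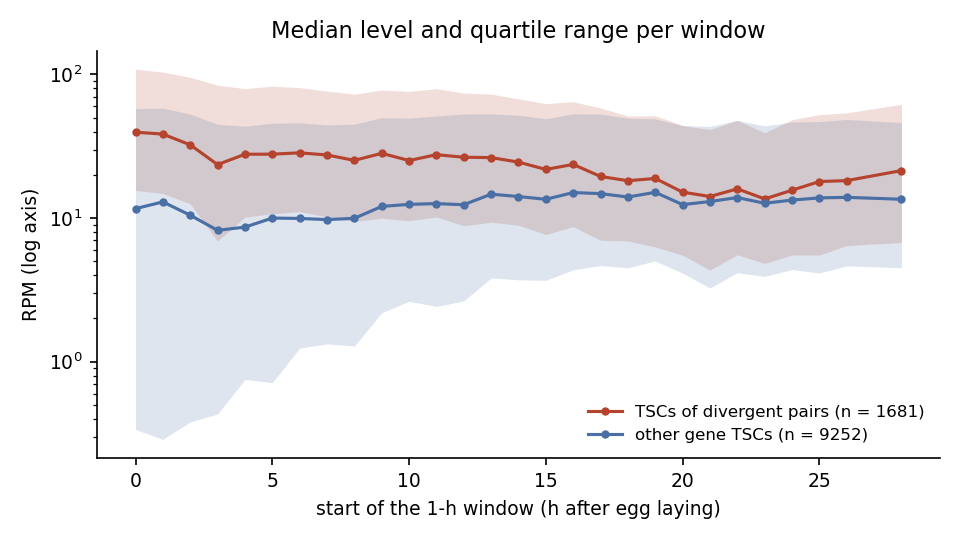
Level in RPM on a log axis (vertical) by the start hour of each 1-h window (horizontal), as the median (points and line) and quartile range (band) over the 1681 TSCs of divergent pairs and the 9252 other gene TSCs reaching 10 RPM. The medians are 39.6 and 11.6 RPM at 0-1 h and 13.6 and 12.7 RPM at 23-24 h.

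The members were then placed in the activity classes the study defines. The study set these on TSCs of Drosophila melanogaster over a shorter series, so the shares here are not comparable with its own. A developmentally regulated TSC has at least 60% of its summed RPM within 8 consecutive windows, and a housekeeping TSC has a maximum under 5 times its minimum. Regulated TSCs number 229 among the members, or 13.6% (95% Wilson interval 12.1 to 15.3%), against 38.6% (37.6 to 39.6%) of the other gene TSCs. Housekeeping TSCs number 232 among the members, or 13.8% (12.2 to 15.5%), against 8.37% (7.82 to 8.95%) of the others. These intervals treat TSCs as independent, which neighbours are not. Both shares were also taken by the time of the peak. Among TSCs peaking before 10 h, 13.3% of the members and 21.2% of the others are regulated, and among those peaking from 20 h on, 25.0% of 168 members and 66.4% of 2474 others. Housekeeping TSCs were 10.6% of the members and 9.86% of the others before 10 h, and 22.0% of the members and 4.81% of the others from 20 h on.

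The class of each TSC was then set against that of its partner. Where the minus-strand TSC was regulated, 33.9% of 118 plus-strand TSCs were regulated too, against 10.9% of the 752 where it was not. Both partners are regulated in 40 pairs, and in 28 of those the peaks lie within 2 h of each other. For the housekeeping class, the shares were close. The plus-strand TSC was housekeeping in 13.9% of the 115 pairs in which the minus-strand TSC was, and in 14.4% of the 755 in which it was not. Both partners are housekeeping in 16 pairs, 1 partner is in 208, and 31 pairs join a housekeeping TSC with a regulated one. These counts share TSCs between pairs and were given no test.

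Members also differ in the spread of their widths. The median width was 95 bp for the members and 94 bp for the other gene TSCs, but the quartiles were 73 and 130 bp against 52 and 147 bp. The rule works on the edges of TSCs and leaves out overlapping pairs, so widths are not independent of it. Narrow TSCs of 40 bp or less made up 4.22% of the members (71 TSCs) and 20.9% of the others. Timing moves with width. Among TSCs peaking before 10 h, 2.44% of the members and 7.39% of the others were narrow, and among those peaking from 20 h on, 15.5% of the members and 42.9% of the others. With a maximum of at least 25 RPM required, narrow TSCs made up 2.16% of the members and 16.1% of the others. Regulated members had a median width of 83 bp, against 54 bp for other regulated TSCs, and housekeeping members 104 bp, against 112 bp. The widths of partners also showed little relation, with a Spearman correlation of 0.048 over the pairs.

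**Figure D3:**
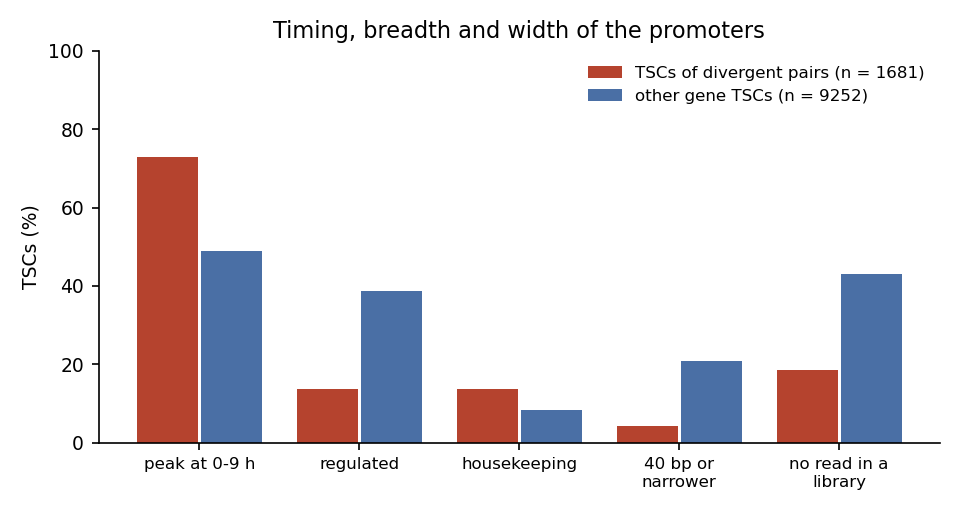
Percent of TSCs (vertical axis, from 0) that peak before 10 h, are regulated, are housekeeping, are 40 bp wide or less, or have no read in at least 1 of 28 libraries, for the 1681 TSCs of divergent pairs (left bars) and the 9252 other gene TSCs of at least 10 RPM (right bars). Regulated TSCs make up 13.6% of the members and 38.6% of the others, and narrow TSCs 4.22% and 20.9%.

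Divergent pairs were found on every chromosome arm. There are 224 pairs on chromosome 2, 161 on chromosome 3, 166 on chromosome 4, 151 on XL, 160 on XR and 8 on unplaced scaffolds. As a share of the gene TSCs of at least 10 RPM, members range from 14.2% on XR to 17.2% on chromosome 4 among the placed arms, and make up 5.48% on unplaced scaffolds.

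Change over time was tested for each TSC with limma, by the F-test of a natural cubic spline of the hour on log2(RPM + 1), with Benjamini-Hochberg adjustment over all 25360 TSCs that reach 1 RPM and a threshold of 0.05. Of the members, 1496 (89.0%) were called. The background is 79.1% of all TSCs tested and 92.3% of TSCs that reach 10 RPM, the level the rule itself demands, so the share among the members lies near that of other TSCs of like level.

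The direction of the fitted change, from the first to the last window, differs more. In all, 1153 members (68.6%) were called and ended lower, and 343 (20.4%) were called and ended higher. For TSCs of at least 10 RPM, 48.1% were called lower and 44.2% higher. These splits move with the scaling of the libraries. With upper-quartile scaling, 960 of 1442 called members ended lower and 482 higher, and the quasi-likelihood test of edgeR on recovered reads with TMM factors gave 813 lower and 563 higher among 1376. With RLE factors in edgeR the split was 761 lower and 591 higher. There, 43.7% of called members ended higher, against 62.8% of all called TSCs. The shares of members called under upper-quartile scaling, TMM and RLE were 85.8%, 81.9% and 80.4%. Over all TSCs tested in these fits they were 76.8%, 87.9% and 87.0%. With the library of 27-28 h included in the limma fit, only 125 of 1226 called members ended higher and 1101 lower. In that fit, 72.9% of the members and 73.0% of all TSCs tested were called. Of those called, 10.2% of the members and 45.0% of all TSCs ended higher. Members that ended higher made up 22.9%, 33.4% and 40.9% of the called members under total RPM, upper-quartile scaling and edgeR with TMM, against 47.9%, 55.0% and 59.8% of all called TSCs of at least 10 RPM. The median change of the members on the log2 scale was -0.76, -0.43 and -0.23, against -0.11, 0.16 and 0.40 over TSCs of at least 10 RPM and 0.02, 0.11 and 0.53 over all TSCs tested in the same fits.

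Both partners were called in 698 pairs (80.2%). They ended lower together in 438 pairs, higher together in 55, and moved in opposite directions in 205 (29.4%). Most called members ended lower, so these counts alone do not measure agreement between partners. Where the minus-strand TSC was called lower, 18.4% of 592 plus-strand TSCs were called higher. Where it was called higher, 32.9% of 167 were. These shares were given no test. With upper-quartile scaling the opposite pairs numbered 272 of 648, and with edgeR 266 of 593, while both partners ended higher in 81 and 109 pairs.

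Whether partners follow the same course was measured by the Pearson correlation of their log2(RPM + 1) values over the 28 libraries. Neighbouring hours resemble each other, so r describes the likeness of the courses and carries no p. Its median over the 870 pairs was 0.321, with quartiles of 0.039 and 0.575 and a range from -0.840 to 0.993. It was negative in 199 pairs (22.9%), above 0.5 in 292 (33.6%) and above 0.8 in 48 (5.52%). Members that are not partners also resemble each other. Over the 705564 combinations of a minus-strand member with a plus-strand member of another gene that is not its partner, the median was 0.251, with 24.8% above 0.5 and 2.04% above 0.8. Over all 59755909 combinations of gene TSCs of at least 10 RPM from different genes it was 0.038. For the median pair, 42.2% of the plus-strand members resembled the minus-strand TSC more closely than its partner did, and in 42 pairs (4.83%) the partner was within the most similar 1%.

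Within the chosen range, median r differed little with the gap. It was 0.313 in the 286 pairs under 100 bp apart, 0.366 in the 75 pairs at 100 to 199 bp, 0.350 at 200 to 299 bp, 0.314 at 300 to 399 bp and 0.332 at 400 to 500 bp. Spearman's correlation of gap and r was -0.004 over the 870 pairs. Divergent neighbours further apart had medians of 0.267 at 501 to 1000 bp (475 pairs), 0.176 at 1001 to 2000 bp (613 pairs) and 0.179 at 2001 to 5000 bp (1629 pairs). By level, the median was 0.383 in the 121 pairs in which both maxima reach 100 RPM, 0.303 in the 392 whose weaker TSC peaks between 25 and 100 RPM, and 0.335 in the 357 in which it peaks under 25 RPM.

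Neighbours in other orientations had higher medians, over few pairs. The median was 0.593 for the 38 pairs on the same strand and 0.496 for the 25 convergent pairs at 0 to 500 bp. The 695 pairs of TSCs of 1 gene at that distance had a median of 0.641, and 8.35% of them were negative.

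**Figure D4:**
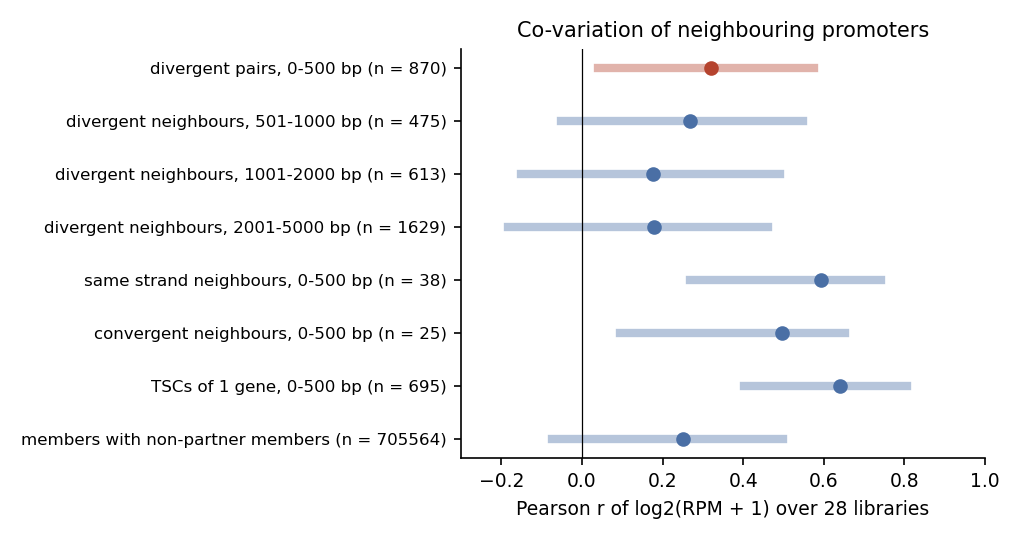
Pearson r of log2(RPM + 1) over 28 libraries (horizontal axis) as the median (point) and quartile range (bar) for divergent pairs, for neighbours further apart or in other orientations, for TSCs of 1 gene, and for members combined with members that are not their partners. The median of the divergent pairs is 0.321, against 0.251 for the combinations of non-partners and 0.641 for TSCs of 1 gene.

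Likeness differed most with the activity class, which is computed from the same values. The 40 pairs with both partners regulated had a median r of 0.830, the 160 with 1 regulated partner 0.465, the 208 with 1 housekeeping partner 0.178, and the 16 with both housekeeping 0.232. The hour of highest activity differed by a median of 4 h between partners. In 72 pairs (8.28%) the peaks fell in the same window, in 295 (33.9%) within 2 h, and in 234 (26.9%) they were 10 h or more apart. Both peaks lay before 10 h in 488 pairs, and 102 pairs joined a peak before 10 h with one from 20 h on.

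The 5 most similar pairs of those with both maxima of at least 25 RPM are active late. In the first, at bases 9654297 to 9654374 (minus) and 9654858 to 9654940 (plus) of scaffold chr4_group3, FBgn0246784_01 had no read at 0-1 h, a median of 1.10 RPM and a maximum of 902 RPM at 23-24 h. FBgn0247444_02, 483 bp away, had no read at 0-1 h, a median of 2.98 RPM and a maximum of 1458 RPM in the same window. Both ended far below that peak, at 28.2 and 19.2 RPM at 28-29 h. Their correlation was 0.993, and between 0.991 and 0.994 when any 1 library was left out.

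FBgn0249724_01 and FBgn0249873_01 (r = 0.982), 201 bp apart at bases 2003429 to 2003469 and 2003671 to 2003897 of scaffold chrXR_group8, were the strongest of the alike pairs. The minus-strand TSC had no read at 0-1 h, a median of 36.3 RPM and a maximum of 9976 RPM at 21-22 h, and its partner 0.253 RPM at 0-1 h, a median of 103 RPM and a maximum of 13250 RPM in that same window. In single windows the partners were alike in some and apart in others. At 5-6, 6-7, 7-8 and 8-9 h the minus-strand TSC stood at 0.714, 35.4, 3.77 and 0.643 RPM, and the plus-strand TSC at 0.714, 47.7, 9.76 and 0.321 RPM. A late TSC on another scaffold of XR, FBgn0245250_01, also had a high value at 6-7 h. It had no read at 5-6 h, 34.3 RPM at 6-7 h and 0.321 RPM at 8-9 h. Other late TSCs stood lower at 6-7 h, but some were also higher there than in the next window. FBgn0073125_01 had 0.714 RPM at 5-6 h, 4.52 RPM at 6-7 h and no read at 7-8 h. FBgn0073129_01, FBgn0249932_02 and FBgn0080233_01 had 1.02, 1.69 and 1.47 RPM at 6-7 h. At 7-8 h, FBgn0080233_01 had 0.222 RPM and the other TSCs of these had no read. FBgn0246784_01 and FBgn0245248_01 had no read in either window. At 12-13 h, however, the minus-strand TSC of the pair stood at 0.884 RPM and its partner at 14.1 RPM, and at 22-23 h they stood at 9355 and 3415 RPM. With any 1 library left out, r of the pair lay between 0.980 and 0.986.

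The other 3 are also on XR. FBgn0073129_01 reached 1519 RPM at 22-23 h and FBgn0073125_01, 411 bp away, 3233 RPM at 23-24 h (r = 0.979). FBgn0249653_01 reached 579 RPM at 22-23 h and FBgn0249932_02, a TSC of 13 bp that lies 314 bp away, 196 RPM at 21-22 h (r = 0.976). FBgn0080233_01 and FBgn0245248_01, of 18 and 24 bp and 485 bp apart, reached 602 and 44.4 RPM, both at 22-23 h (r = 0.946). None of these 6 TSCs had a read at 0-1 h. Of the 48 pairs with r above 0.8, 30 are among the 488 pairs with both peaks before 10 h, and 11 are among the 15 pairs with both from 20 h on.

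Of the pairs with both maxima of at least 25 RPM, the 5 least similar join TSCs that are high in different windows. The lowest r, -0.840, belongs to FBgn0077956_01 and FBgn0072507_01, the pair with the highest summed RPM, and lay between -0.868 and -0.817 with any 1 library left out. The limma fit put the minus-strand TSC 1.17 ± 0.33 (SE) higher on the log2 scale at the end of the series than at its start (adjusted p = 4.3e-08). For its partner, the fitted change was -0.17 ± 0.53 although its course was called (adjusted p = 9.3e-10), since its level was lowest at 23-24 h and higher again at 28-29 h, with 12.4 RPM.

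On chromosome 3, FBgn0074465_01 ranged from 237 RPM at 3-4 h through a median of 667 to 1346 RPM at 23-24 h, while FBgn0077813_01, 462 bp away, ranged from 67.0 RPM at 17-18 h through a median of 155 to 351 RPM at 3-4 h (r = -0.735). The window of 3-4 h is the lowest for 1 partner and the highest for the other, and without it r was -0.673. On XL, FBgn0077535_02 had between 28.3 and 199 RPM, with a median of 108, and its level at 28-29 h, 135 RPM, exceeded the 50.5 RPM at 0-1 h. FBgn0080257_01, 484 bp from it, had 54.5 RPM at 0-1 h, 5.40 RPM at 3-4 h and no read at 28-29 h (r = -0.726). The last pairs are FBgn0075813_02 with FBgn0075305_03, 215 bp apart on chromosome 3 (r = -0.673), and FBgn0076947_01 with FBgn0076851_01, 300 bp apart on XR (r = -0.650). In the XR pair the minus-strand TSC had no read at 0-1 h and 31.3 RPM at 22-23 h, and the plus-strand TSC was highest, with 30.6 RPM, at 11-12 h and lowest, with 4.13 RPM, at 20-21 h.

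**Figure D5:**
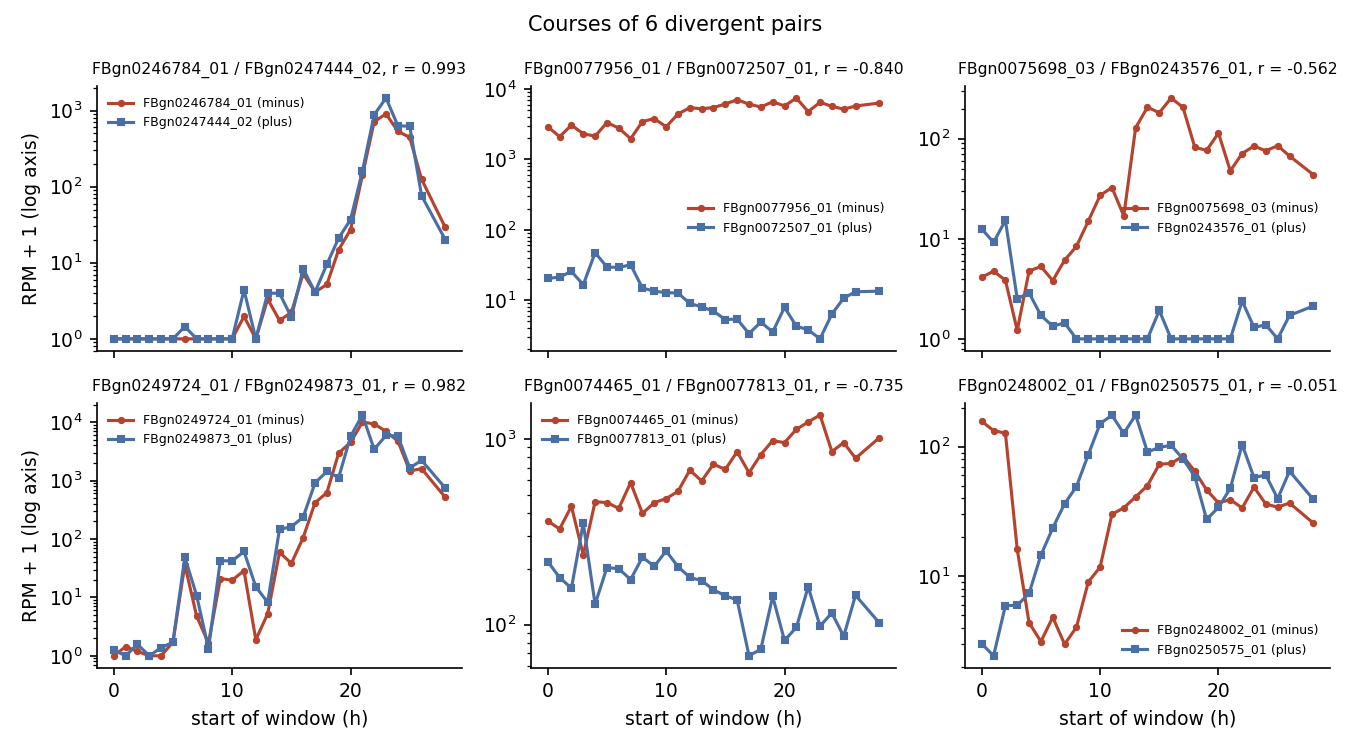
Level as RPM + 1 on a log axis (vertical) by the start hour of the window (horizontal) in 28 libraries, for the minus-strand and plus-strand TSCs of the 2 most similar pairs (left), the 2 least similar pairs (middle) and the 2 pairs with the smallest adjusted p of the ratio test (right). The most and least similar pairs were taken from those with both maxima of at least 25 RPM. Partners overlie each other on the left (r = 0.993 and 0.982), diverge in the middle (r = -0.840 and -0.735) and exchange the lead on the right.

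The balance within a pair was tested directly. For each pair the log2 ratio of plus-strand to minus-strand RPM, with 1 RPM added to each, was fitted with the same spline in limma over all 1956 neighbouring pairs of different genes within 500 bp, in any orientation, with both maxima of at least 1 RPM. A factor common to a library cancels in this ratio except through the added 1 RPM. The ratio changed with time in 658 of the 870 divergent pairs (75.6%). Over all pairs tested the share was 72.6%, which lies near. With 0.1 RPM added in place of 1 RPM, the shares were 64.0% of the divergent pairs and 55.8% of all pairs tested. These 870 pairs are themselves among the 1956, so the share over all is no independent background. At maxima of at least 10 RPM, the ratio changed in 26 of 38 pairs on the same strand and in 14 of 25 convergent pairs. The fitted shift from first to last window exceeded 2-fold in 418 of the 658 divergent pairs and 4-fold in 220. Shifts of these sizes were not counted among the other neighbouring pairs. Of the 292 pairs with r above 0.5, 191 still changed in ratio, and 188 of the 199 pairs with negative r did.

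The 4 smallest adjusted p values in members mark pairs whose balance shifted by a wide margin. FBgn0248002_01 and FBgn0250575_01 lie 481 bp apart on XL. The minus-strand TSC had 156 RPM at 0-1 h, 2.00 RPM at 7-8 h and 83.4 RPM at 17-18 h, and the plus-strand TSC 2.02 RPM, 35.3 RPM and 79.5 RPM in the same windows. The ratio ended 7.54 ± 0.70 (SE) higher on the log2 scale (adjusted p = 1.4e-15). In the pair of FBgn0081051_01 and FBgn0081054_02 on chromosome 3, 217 bp apart, the minus-strand TSC had 64.0 RPM at 0-1 h and 55.2 RPM at 28-29 h, while the plus-strand TSC had 0.674 RPM, from 8 reads, and 110 RPM. This ratio ended 6.89 ± 0.61 higher (adjusted p = 1.6e-15).

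FBgn0245970_04 and FBgn0245995_01, 84 bp apart on chromosome 3 (r = -0.722), stayed unequal. The minus-strand TSC had 0.0843 RPM at 0-1 h, which is 1 read, and 13.9 RPM at most, whereas the plus-strand TSC had between 39.0 and 478 RPM, and the ratio fell by 3.82 ± 0.59 on the log2 scale (adjusted p = 1.9e-15). The smallest value belongs to FBgn0075698_03 and FBgn0243576_01, 300 bp apart on chromosome 3, where the ratio fell by 7.07 ± 0.82 (adjusted p = 5.6e-16). The minus-strand TSC had 3.12 RPM at 0-1 h and 254 RPM at 16-17 h, and the plus-strand TSC 11.6 RPM at 0-1 h and no read at 16-17 h.

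That gene pair is 1 of 2 with 3 TSC pairs, and it shows how the choice of promoter changes the answer. The gene FBgn0075698 has a second minus-strand TSC, FBgn0075698_02, at bases 8590152 to 8590231, between FBgn0075698_03 at bases 8589756 to 8589956 and the partner gene. This inner TSC began at 89.2 RPM at 0-1 h, its maximum, and had a median of 27.7 RPM. With FBgn0243576_01, 25 bp away, it had an r of 0.521, and with FBgn0243576_02, 298 bp away, 0.662. The outer TSC of the same gene had an r of -0.562 with FBgn0243576_01. In the other gene pair with 3 TSC pairs, on XL, FBgn0244010_01 had an r of 0.692 with FBgn0071555_01 and 0.742 with FBgn0071555_02, while the narrow FBgn0244010_02, of 14 bp and at most 12.9 RPM, had an r of 0.031 with FBgn0071555_01.

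The gene-level table of the series uses another set of FlyBase identifiers. Recovered reads that were identical in all 28 libraries linked 1204 of the 1634 member genes (73.7%) to a row of it, against 64.2% of the other genes with a TSC of at least 10 RPM. In 467 gene pairs both genes were linked. The pair with the highest summed RPM corresponds there to FBgn0002593 and FBgn0031252, and the pair on XL with the exchanged lead to FBgn0030581 and FBgn0003301.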

How the data were processed

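The deposited TSC values are RPM, made by the authors from RAMPAGE reads after alignment with STAR (genome release r2.9 of FlyBase). The authors called TSCs on the whole series together. Samples of the series were barcoded at reverse transcription and pooled, so misassigned barcodes can act on these values. Reads were recovered from the RPM (100% of nonzero values within 0.1 of a whole number). Members, lists and tests were chosen with earlier results of these data known. The main fits used limma 3.58.1 in R 4.3.3 on log2(RPM + 1), which understates the change of low TSCs, with a natural spline of 5 degrees of freedom. edgeR 4.0.16 was run on recovered reads, with TMM or RLE factors, as an alternative. Upper-quartile scaling in the limma fit and thinning of the timing and class shares were added after seeing the data. Descriptions used Python 3.11.15, pandas 2.3.3 and numpy 2.4.6. The error of a fit is the scatter of single libraries around the spline. Named pairs are the 4 with the highest summed RPM, the 5 with the highest and 5 with the lowest r at maxima of at least 25 RPM (1 TSC pair per gene pair), the 4 with the smallest gap, the 4 with the smallest adjusted p of the ratio, those at the limits of the rule, and gene pairs with the most TSC pairs. The smoothed gene table was not used here. Function lists and stage markers could not be matched to identifiers, and sequences were not used here.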

Additional observations from a re-analysis of the deposited data

How the results depend on the processing

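With 1 library per window, no value has a replicate, and pairs share libraries, TSCs and genes. Including the library of 27-28 h, with its 1011 reads, raised the median r of the pairs to 0.630, left 9 housekeeping members in place of 232, and gave 1226 time-dependent members, of which 125 ended higher in place of 343, and 523 pairs with a changed ratio. These are 72.9% of the members and 60.1% of the pairs, against 73.0% of all TSCs and 58.7% of all neighbouring pairs tested. Median r was 0.247 with upper-quartile scaling, 0.274 on thinned reads and 0.079 for changes between consecutive windows, where the combinations of non-partners had 0.166, 0.201 and 0.04. Thus the excess over non-partners was 0.081, 0.073 and 0.04, against 0.07 for the values as reported. The housekeeping count was 728 under a limit of 10-fold, and the regulated count 409 over 10 windows and 146 at maxima of at least 25 RPM, against 229. The median width was 102.5 bp at that level, against 95 bp. Regulated shares under these settings were 24.3% of members and 50.3% of other TSCs over 10 windows, and 11.3% and 35.9% at 25 RPM. Leaving out each library in turn gave median r between 0.309 and 0.343, between 1452 and 1503 time-dependent members, and between 623 and 663 pairs with a changed ratio. Thinned reads, an alternative chosen after seeing the data, left 9.88% of members and 6.47% of other TSCs as housekeeping. The other alternatives run kept median r between 0.303 and 0.319 and the totals of called members and pairs within 1.5 times of those reported. The split by direction moved further, with 563 and 591 members higher under edgeR with TMM and RLE factors.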

Other observations

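The few late divergent pairs lie mostly on XR. Of the 15 pairs in which both partners peak from 20 h on, 10 lie on XR, 3 on chromosome 3, 1 on chromosome 2, 1 on chromosome 4 and 0 on XL, whereas XR holds 160 of all 870 pairs. This count was made after the values were seen and was given no test. The share of XR among all late gene TSCs was not counted. Whether the count is particular to divergent pairs is therefore not known. The XR pairs lie on 2 scaffolds and are not all neighbours. On chrXR_group6, the minus-strand TSCs begin at bases 4041303, 4373163, 4475574, 8050560, 9527172 and 9540525, and on chrXR_group8 at bases 372123, 1950598, 2003429 and 4528072. Median r over the 15 pairs was 0.913 and the lowest r -0.108, in the pair of FBgn0079675_01 and FBgn0078444_01 on chromosome 3, whose maxima are 33.2 and 22.5 RPM. These pairs were chosen by peaks in the same libraries, which itself favours a high r. Late members that are not partners were not compared.

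In several late pairs on XR, 1 partner was far stronger than the other although their courses were alike. FBgn0249824_03 reached 9593 RPM and FBgn0249790_01, 266 bp away, 97.3 RPM in the same window (r = 0.829). FBgn0249867_01 reached 4903 RPM and FBgn0249729_01, 373 bp away, 22.7 RPM (r = 0.782). By contrast, FBgn0070933_01 reached 706 RPM and FBgn0070930_01, 267 bp away, 14.7 RPM, with an r of 0.326.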
